A study of Danio rerio with 2 samples.

Results

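Genes for 7 transcription factors of the basic helix-loop-helix (bHLH) family that act in the early nervous system were read on 2 expression arrays of whole zebrafish embryos. They were neurog1, neurod1, neurod4, ascl1a, ascl1b, atoh1a and olig2, taken by symbol from the platform annotation. Each was named by exactly 1 probe set carrying no other gene, and together they were 7 of 8791 named genes on the array. All embryos were kept at the same temperature and collected at 24 hours after fertilization, and the labels name no strain or genotype. One array held RNA from embryos injected with a morpholino against a C1q-like gene, about 5 ng per embryo. The other held RNA from embryos given a like amount of a control oligomer, the same morpholino with 5 mismatched bases. Morpholinos are short antisense molecules that stop a messenger RNA from being translated or spliced, so these embryos are a knockdown and still carry the gene. The sources used here do not say how many embryos each RNA sample came from. The series set out to learn which genes and pathways respond to loss of the C1q-like protein.

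Proneural bHLH factors turn dividing neuroepithelial cells into neurons. They bind DNA as dimers with ubiquitous E proteins, switch on Delta ligands that activate Notch in neighbouring cells, and are in turn held down by Her and Hes repressors, while Id proteins take up the E proteins and block dimer formation. Neurogenins and Achaete-scute factors act early, in progenitors, and NeuroD factors act later, in cells leaving the cell cycle. Olig2 belongs to the same structural family but is a patterning repressor of the ventral spinal cord rather than a proneural factor in the strict sense.

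With 1 array per group there was no replicate, so no difference below was tested and "lower" or "higher" describes these 2 arrays. Values are MAS5 signals, a linear measure of probe set brightness, and a pair given as "x against y" has the C1q-like morpholino array first. No probe set used here bore the name of the targeted gene, so the knockdown itself was not checked. Signals under 33.3, the median of all signals, were raised to that floor before a ratio was taken, because dim MAS5 signals are mostly background. The 5966 genes with a signal at or above the floor on either array are called measured. Hybridization and scanning took place on a separate day for each array, so the day cannot be told apart from the group. In whole embryos, fewer cells of a type and less RNA per cell cannot be told apart.

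All 7 genes had a lower signal with the C1q-like morpholino than with the control. Below a ratio of 1 lay 48.7% of all measured genes. At least 2-fold lower were 3 of the 7, namely neurod1, ascl1b and olig2, against 4.07% of all measured genes. Genes with control signals less than 2-fold above the floor cannot read 2-fold lower, which holds that share down. With no floor it was 4 of the 7 against 10.1% of all genes. With the floor at the 75th percentile of signals, which lies above the C1q-like morpholino signals of neurod1 and olig2, ascl1b alone of 5 measured was at least 2-fold lower, against 3.05% of all genes, and their median log2 ratio was -0.43. At least 1.5-fold lower were 5 of the 7, with ascl1a and neurog1 added, against 14.5%. None of the 7 was at least 2-fold higher, as 1.68% of measured genes were. Their median log2 ratio of C1q-like over control morpholino was -0.95, and that of all measured genes was 0.01. Of all genes past 2-fold, 70.8% were lower as the signals were deposited and 57.5% after quantile normalization. That majority turned with the floor at the 25th percentile, at 44.9%, and with no floor, at 44.4%.

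**Figure D1:**
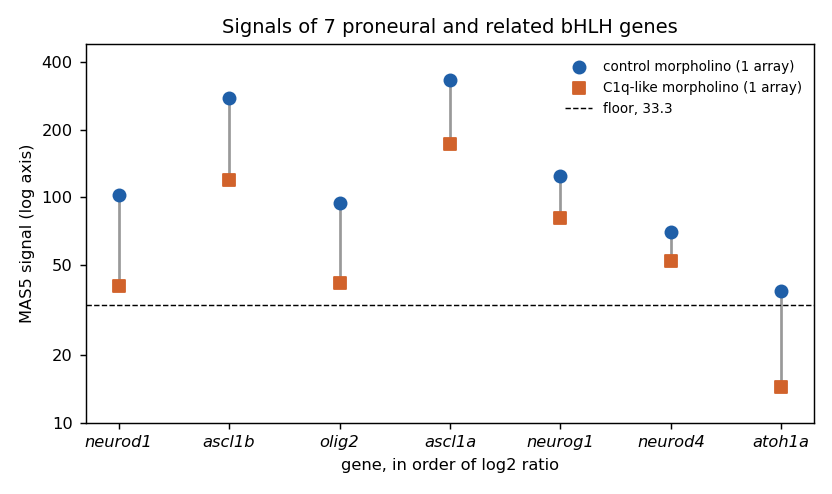
MAS5 signal on a log axis for each of the 7 genes, ordered by log2 ratio, with 1 point per array, a line joining the 2 arrays of a gene and the floor of 33.3 dashed. The control point lies above the C1q-like morpholino point for every gene, and atoh1a is the one gene that crosses the floor, from 38.5 to 14.4. Heights are not comparable between genes.

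The Achaete-scute genes act early in neuron formation. The gene ascl1a, which in zebrafish acts in forebrain and pituitary development and in retinal regeneration, read 333.2 on the control array and 171.9 on the C1q-like morpholino array. It was 1.94-fold lower, a log2 ratio of -0.95. Its signal stood at the 91.1st percentile of the control array and at the 85.4th of the other, so it remained well within the measurable range on both. Its duplicate ascl1b, also expressed in the embryonic brain, read 119.4 against 276.8. It was 2.32-fold lower, a log2 ratio of -1.21, and moved from the 89.6th to the 80.4th percentile. The ratios of these duplicates differed by 0.26 on the log2 scale.

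The neurogenin gene neurog1, required in zebrafish for cranial sensory ganglia and Rohon-Beard sensory neurons, read 125.1 on the control array and 80.9 on the C1q-like morpholino array. It was 1.55-fold lower, a log2 ratio of -0.63. The NeuroD genes act downstream of neurogenins in differentiating neurons. For neurod1, also known from endocrine cells of the pancreas, the C1q-like morpholino signal was 40.4 and the control signal 102.9, and it was 2.55-fold lower. That log2 ratio of -1.35 was the lowest of the 6 genes at or above the floor on both arrays, and 1.17% of measured genes had a lower one. With no floor atoh1a was lower, at -1.42. For neurod4 the signals were 52.3 and 70.4, and it was 1.35-fold lower, a log2 ratio of -0.43, with 21.0% of measured genes below it. The C1q-like morpholino signals of neurod1 and neurod4 lay within 2-fold of the floor.

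The last pair mark restricted territories. The gene olig2, which directs formation of motor neurons and oligodendrocytes in the ventral spinal cord, read 94.8 on the control array and 41.8 on the other. It was 2.27-fold lower, a log2 ratio of -1.18. The gene atoh1a, needed for neurons of the hindbrain rhombic lip and for sensory hair cells, read 14.4 against 38.5. Only the control signal reached the floor, so the fold is a bound, at least 1.16-fold lower, and the unfloored signals differed 2.67-fold. Without atoh1a the median log2 ratio of the other 6 genes was -1.07.

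**Figure D2:**
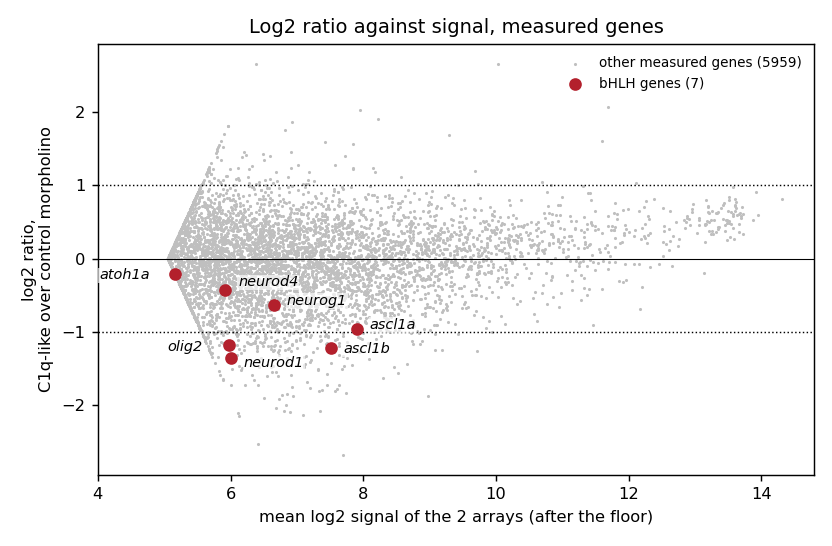
Log2 ratio of C1q-like over control morpholino against the mean log2 signal of the 2 arrays for the 5966 measured genes, with the 7 bHLH genes in red and dotted lines at 2-fold. All 7 lie below 0, and neurod1, ascl1b and olig2 lie below the lower dotted line. The straight left edges are made by the floor.

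Dim genes scatter more than bright ones, so the 7 were also set beside genes of like brightness. After the floor their mean signals ran from 35.8 to 239, and the lower end was that of atoh1a, with 1 signal raised. Near that end the floor holds ratios close to 0. The whole range held 4152 measured genes. Of these 51.7% had a ratio below 1, 17.1% were at least 1.5-fold lower, 5.13% were at least 2-fold lower and 2.07% were at least 2-fold higher. Their median log2 ratio was -0.03. The middle of the distribution in that range thus lay near 0, whereas the highest of the 7 bHLH ratios was -0.21, the bound of atoh1a.

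Probe sets of the same gene give a measure of error between probes, though not between embryos. Within that brightness range 480 genes had a pair of measured probe sets, and their log2 ratios differed by a median of 0.41 and by 1.104 at the 90th percentile. Of 37 such genes at least 2-fold lower by the brighter probe set, 28 were also below 1 by the other and 9 were also at least 2-fold lower. None of the 7 bHLH genes had a second probe set. From lowest upward, the ratios of the 6 genes at or above the floor on both arrays ran neurod1, ascl1b, olig2, ascl1a, neurog1 and neurod4. The steps were 0.14, 0.03, 0.23, 0.33 and 0.20. Every step was smaller than the median difference between probe sets of a gene, so neighbours in this order are not resolved. The whole span from neurod1 to neurod4 was 0.92, below the 90th percentile of those differences.

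The 3 named genes whose pair of log2 signals lay closest to that of neurod1, among 4749 at or above the floor on both arrays, were neo1a, stau1 and olig2. Their distances were 0.11, 0.12 and 0.13 on the log2 scale. The signals of neo1a were 38.4 and 108.9, and those of stau1 were 43.4 and 107.4. With 2 arrays such nearness reflects 1 level and 1 ratio.

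Other bHLH genes of the nervous system were also lower where they could be read. Of 9 found on the array, neurog3, neurod2, neurod6a and atoh7 were under the floor on both arrays, and all 5 measured ones had ratios below 1, with 2 at least 2-fold lower. The dorsal spinal cord gene olig3, a relative of olig2, read 63.7 against 149.9 and was 2.35-fold lower, though its second probe set was under the floor. The repressor gene bhlhe22 read 35 against 76 and was 2.17-fold lower. The remaining ratios lay nearer 0, at log2 -0.33 for ptf1a and -0.03 for neurod6b, both bounds, and -0.25 for atoh8. The median of the 5 was -0.33, and with no floor that of all 9 was -1.12.

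The bHLH genes of mesoderm and pigment cells were not lower as a group. Of 12 on the array 7 were measured, 3 with ratios below and 4 above 1, and none at least 2-fold apart in either direction. Only hand2, at 211.9 on the control array, was bright enough to read 2-fold lower after the floor. The other control signals ran from 25.9 for myod1 to 58.4 for myog. The median log2 ratio of the 7 was 0.05 as deposited and -0.05 after quantile normalization. With no floor all 12 had a median of -0.003, and 2 were at least 2-fold lower, against 10.1% of all genes. The muscle determination gene myod1 was at 0.57, a bound, and myog, which follows it in muscle differentiation, at 0.10. The melanocyte regulator mitfa was at 0.25 and hand2, of heart and fin, at -0.25. The somite gene tcf15 was at 0.05, which was -0.05 after quantile normalization. The mesenchyme genes twist1a and twist3 were at -0.06 and -0.04, the second a bound. All of these lay between -0.25 and 0.57, while 6 of the 7 proneural and related genes lay at -0.43 or lower. Control signals of those 6 ran from 70.4 to 333.2, so the floor limited them less. No test of that difference was possible with 1 array per group.

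**Figure D3:**
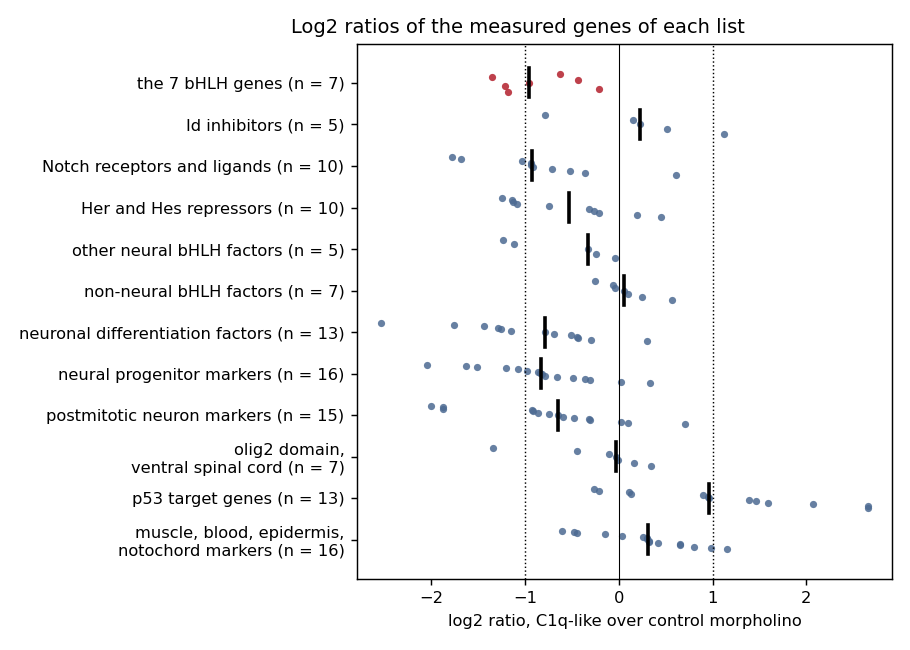
Log2 ratio of C1q-like over control morpholino for each measured gene (points) of each list holding 5 or more such genes, with the median of each list as a black bar and dotted lines at 2-fold. The 7 bHLH genes, the Notch genes and the neuron and progenitor lists have medians between -0.65 and -0.95, the non-neural bHLH genes 0.05 and the p53 target genes 0.97.

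Of the dimer partners of proneural proteins only tcf12 was measured, and it was lower. Most Id inhibitor genes read somewhat higher as deposited. Of the E protein genes, tcf12 read 75.5 with the C1q-like morpholino against 131.8 and was 1.75-fold lower. Log2 ratios from its other measured probe sets were -0.98 and -1.29, so all 3 lay below 0. The E protein gene tcf3a was under the floor on both arrays, at 4.4 and 22.8. All 5 Id genes were measured and 4 had ratios above 1, with a median log2 ratio of 0.22. The gene id2b was 2.18-fold higher (73.7 against 33.8, the control just above the floor), and its second probe set gave a bound of 0.20. The log2 ratio was 0.51 for id2a (445.3 against 312.2) and 0.15 for id3 (228.7 against 206.5). For id1 it was 0.22 as deposited, but -0.03 with lowess centring and -0.01 with quantile normalization. The exception was id4, which read 66.4 against 114.2 and was 1.72-fold lower.

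The Notch pathway links neighbouring cells during neuron formation. Ratios were below 1 for 9 of 10 measured receptor, ligand and modifier genes, 3 of them at least 2-fold lower, with a median log2 ratio of -0.92. The Delta genes dla and dlb, direct targets of proneural factors in the vertebrate nervous system, had the lowest ratios after the floor, at -1.78 and -1.68. Of the 10 values 3 were bounds and may lie lower than given. A dimmer probe set of dlb gave 0.48, in the opposite direction. The same held for notch2, at -0.94 by its brightest probe set and 0.22 by another. At the other end were dlc, of the segmentation clock as well as of neurons, at -0.36, and mib1, a ubiquitin ligase that Delta signalling requires, at 0.61. For dlc the first value is a bound and another measured probe set gave a bound of 0.12.

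Most of the measured Her and Hes repressors were lower. Ratios were below 1 for 8 of 10 measured, 4 of them at least 2-fold lower, with a median log2 ratio of -0.53. The Notch targets her15.2 and her4.2, which restrain proneural genes, were lowest after the floor. The signals of her15.2 were 351.9 against 834.8, 2.37-fold lower. Those of her4.2 were 61.3 against 134.7, a log2 ratio of -1.14. A second probe set of her4.2, for the same target sequence and so not a separate reading, was at -1.02. Both genes belong to clusters of nearly identical copies, so their probes may read several genes. The value of her8a, -1.13, was a bound (16.4 against 72.8), so it may lie lower than both. Above 1 were her6, bright on both arrays (669.2 against 586.4), at 0.19, and hey2, of blood vessels and heart, at 0.45, a bound.

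Genes that act after the proneural step were lower as well. Ratios were below 1 for 12 of 13 measured neuronal differentiation factors, 6 of them at least 2-fold lower, with a median log2 ratio of -0.78. The zinc finger gene insm1b, which in mouse lies downstream of proneural factors, read 66 against 222.9 and was 3.38-fold lower. After the floor the neuronal RNA-binding protein gene elavl3 was lowest at -2.53, with another measured probe set at 0.58. Of the 13 values 2 were bounds and may lie lower than given. At the other end were prox1a at -0.29 and gad1b, for the enzyme that makes the transmitter GABA, at 0.30. The value of prox1a was a bound (3.4 against 40.8), so only the floor places it there. Among 15 measured markers of neurons that no longer divide 12 lay below 1, 3 of them at least 2-fold lower, with a median of -0.65. For tubb5, stmn1b and gng3, at -1.87, -0.92 and -0.59, a second measured probe set did not repeat this. It gave 0.07, 0.06 and a bound of 0.27. That of sncb, at -0.55, was lower like the first. The markers ran from gpm6aa, 3.99-fold lower, and islr2 at -1.88 to nsfa at 0.10 and tubb2b at 0.70.

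Markers of the progenitors in which these factors act were lower too. Ratios were below 1 for 14 of 16 measured neural progenitor markers, 5 of them at least 2-fold lower, with a median log2 ratio of -0.83. After the floor they ran from pou3f1 at -2.04 and fabp7a at -1.62 to msi2b at 0.03, a bound, and sox19b at 0.34. Of the 16 values 3 were bounds, so this order is not certain. Dimmer measured probe sets of sox3, at -0.78 by the brightest, gave -0.44 and 0.63. For sox1a, at -0.86, another gave a bound of 0.10, while for sox2 another gave -1.15. Counted once each and without the 7 bHLH genes, 69 measured genes of the Notch, Her and Hes, other neural bHLH, differentiation, progenitor and neuron lists had a median of -0.78. A ratio below 1 was found for 60 of them, and 23 were at least 2-fold lower, against 48.7% and 4.07% of all measured genes. The lists were chosen with earlier results of these data known, so these counts are a description only. Whether the 7 bHLH genes, with their median of -0.95, differ from the 69 was not tested.

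Of 17 genes listed as neighbours of olig2 in the ventral spinal cord, 9 were on the array. Those that could be read were not lower as a group. Of 7 measured genes 5 had ratios below 1, 1 was at least 2-fold lower, and the median log2 ratio was -0.03. That median was the value of dbx1b, a bound, and nkx2.2b at -0.11 was also a bound. Control signals of dbx1b, nkx2.2b and nkx2.2a were 33.9, 35.9 and 51.5, too dim to read 2-fold lower after the floor. With no floor the median of all 9 on the array was -0.01. Lowest were dbx1a, of progenitors in the middle of the cord, which read 86.4 against 218.5 and was 2.53-fold lower, and sox10, of oligodendrocytes and neural crest, at -0.44. The ligand gene shha, whose protein induces olig2, read 136.2 against 121.7, a log2 ratio of 0.16, and nkx2.2a, of the domain below that of olig2, was at 0.34. Of the genes listed for the atoh1a territory, 2 of 7 on the array were measured. These were zic1 at -0.49 and meis1b at -0.66, and neither is restricted to that territory.

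Markers of other tissues went the other way or did not shift. Of 16 measured genes of muscle, blood, epidermis and notochord 12 had ratios above 1, with a median log2 ratio of 0.31 as deposited, 0.06 with lowess centring and -0.01 with quantile normalization. They ran from alas2 at -0.60 and tnnt3b at -0.47 to krt4 at 0.98 and gata1a at 1.16. Genes linked to p53 were higher on the same array. Of 13 measured 11 had ratios above 1 and 6 were at least 2-fold higher, with a median of 0.97, from foxo3b at -0.27 and tp53inp1 at -0.21 to rps27l and phlda3, both at 2.66. For 5 of the 13 the ratio is a bound, and the median was 1.59 with the floor at the 25th percentile and 1.95 with none. The part of these shifts in the bHLH values was not tested.

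**Figure D4:**
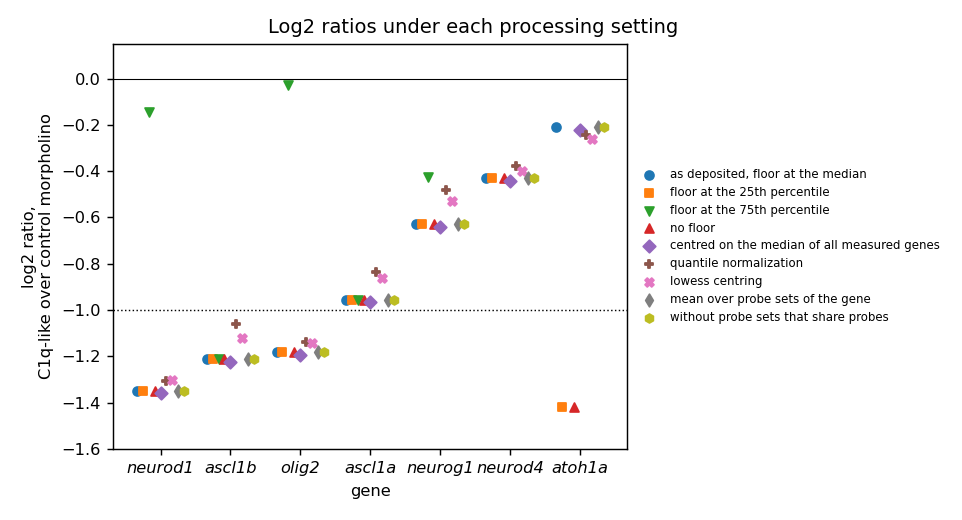
Log2 ratio of C1q-like over control morpholino for each of the 7 genes as deposited with the median floor and under 8 other settings, 1 marker per setting, with a dotted line at 2-fold lower. Every plotted value lies below 0. With the floor at the 75th percentile neurod1 and olig2 come near 0 and atoh1a and neurod4 have no value, and with the lower floor or none atoh1a drops to -1.42.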

How the data were processed

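Biotin-labelled cRNA made from 8 µg of total RNA of zebrafish embryos was put on Affymetrix arrays, per the labels' protocols. The authors deposited 1 intensity (MAS5 signal, linear) per probe set, with MAS5 named per the submitters' processing notes; its version and scaling target are not given in the sources used here. Each group had 1 array, taken from the sample descriptions, so precision is limited by array number. No test, p-value or standard error was computed. Trimmed means were 98.7 and 99.0. Of 42 settings in the deposited experiment files (other text values, per the file headers), the 2 that differed were the days of hybridization and scanning.

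Of 15502 probe sets 10795 named 1 gene, with symbols updated through Entrez numbers and the RefSeq table of GRCz12tu, whose coordinates were not used. The symbols dld and dldh, tied to different genes in different annotations, were left out, so the Notch genes do not include dld. Where several probe sets named a gene, the brightest by mean log2 signal after the floor was used. The members and the 13 gene lists were chosen with earlier results of these data known, and 3 lists in the closing section were added after the files were seen. Named genes were all 7 members, all measured genes of the short bHLH, E protein and Id lists, and the 2 highest and 2 lowest of other lists. The gene her8a was added because its value was a bound. Also named were the 3 nearest to 1 member. It had the log2 ratio farthest from 0 among members at or above the floor on both arrays. The 8 alternatives covered floor, scaling and probe set choice. The steps were tested on simulated data. Python 3.11.15, numpy 2.4.6, pandas 2.3.3, statsmodels 0.14.6 and matplotlib 3.10.9 were used.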

Additional observations from a re-analysis of the deposited data

How the results depend on the processing

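Of the 3 scalings, only lowess centring and quantile normalization could have moved a ratio of the 7 genes across 0. Centring on the median lowered every ratio by 0.01, a floor cannot turn a sign, and each gene has 1 unshared probe set. All 21 values under the 3 scalings were below 0, but those of median centring could not have been otherwise. Each lay within 0.47 of the deposited one, the spread of 1 probe set estimated from pairs of the same gene. With the floor at the 75th percentile, a signal of 93.1, neurod1 was at -0.144 and olig2 at -0.026, because that floor lies above their C1q-like morpholino signals. Under it 5 of the 7 genes were measured, 1 was at least 2-fold lower (3.05% of all 3375 measured genes) and the median was -0.43. With the floor at the 25th percentile or with none, atoh1a was at -1.42 and 4 of the 7 were at least 2-fold lower, against 5.74% of 7846 and 10.1% of 8791 genes. Over the alternatives ascl1a ranged from -0.97 to -0.83, ascl1b from -1.22 to -1.06, neurog1 from -0.64 to -0.43 and neurod4 from -0.44 to -0.38. The median of the 7 genes was -0.83 with quantile normalization and -0.86 with lowess centring. Counts over all genes depended on the floor. At least 2-fold lower and higher were 243 and 100 genes as reported, 103 and 31 with the higher floor, 450 and 552 with the lower floor, and 892 and 1116 with none. The 69 neural genes had a median of -0.72 with lowess centring and -0.68 with quantile normalization, over 68 of them. The median of the non-neural bHLH genes was -0.25 with the higher floor, over 1 gene. That of the Notch genes was -1.45 with the higher floor, over 3 genes, and that of the Her and Hes genes -0.32 without probe sets that share probes. Averaging the probe sets of a gene took the median to -0.65 for the Notch genes and -0.48 for the neuron markers. For the 69 neural genes it was then -0.66, with 20 at least 2-fold lower, against 3.57% of all measured genes. No paired analysis was possible because each group has 1 array.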

Other observations

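Some of these factors also work outside the brain and spinal cord, and the lists below were chosen after the files were seen. Of 8 measured genes of the endocrine pancreas, where neurod1 also acts, 5 had ratios above 1, with a median log2 ratio of 0.36 and -0.08 with no floor. The insulin gene ins read 207.5 with the C1q-like morpholino against 117.3, a log2 ratio of 0.82, and the somatostatin gene sst2 read 167.7 against 119.5, at 0.49. The 3 lower ones were insm1b at -1.76, pax6b at -0.84 (a bound) and isl1a at -0.51, and nkx2.2a, at 0.34, was among the higher ones. All of these also stand in the neural or ventral spinal cord lists above, so they are not separate readings. Whether that bears on their direction was not tested. The values of hhex, at 0.45, and sst1.1, at 0.38, were bounds. All 6 pituitary genes on the array, where ascl1a acts, were under the floor on both arrays.

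Of 9 genes of cranial placodes and sensory organs, sites of neurog1 and atoh1a, 3 were measured. The placode genes dlx3b and dlx4b were at 0.69 and 0.42. The gene eya1, of the ear and lateral line, read 31.8 against 65, a bound of -0.96.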
